A study of Homo sapiens with 30 samples.

Results

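HSPA5, DNAJB9 and MANF encode 3 proteins of the endoplasmic reticulum (ER) that help other proteins fold there. They were found by gene name among the 22538 distinct names of the deposited expression files. Each name had 1 row, and all 3 passed the filter on low values that left 8531 genes to be tested (at least 1 FPKM, the fragments per kilobase of transcript scaled to library size, in 3 or more libraries). BEAS-2B cells, an established line from human bronchial epithelium immortalised with viral oncogenes, spent 30 min on a rocker under 1 of 4 kinds of hookah smoke. The exposures were charcoal burnt alone, charcoal heating a herbal shisha with no tobacco (herbal-charcoal), charcoal heating tobacco shisha (tobacco-charcoal), and tobacco shisha heated electrically (tobacco-electric). A further group served as control. RNA was taken from 3 wells per group 2 h or 24 h after exposure, giving 10 groups and 30 libraries. Every exposure was given at the highest dose that released no lactate dehydrogenase at 24 h, so smoke mass was not matched. What the control wells received, and whether wells were separate cultures, is not given in the sources used here, and p-values measure the spread between wells, which may be technical.

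The ER folds proteins bound for membranes and secretion. When unfolded proteins build up in it, the unfolded protein response raises its chaperones through the sensors IRE1 (gene ERN1), PERK (EIF2AK3) and ATF6. HSPA5, also called BiP or GRP78, is the Hsp70 chaperone of the ER lumen and holds these sensors inactive while it is bound to them. DNAJB9, also called ERdj4, is a J-domain partner that hands misfolded proteins to HSPA5 and helps it to restrain IRE1. MANF is a small ER protein that binds HSPA5 and can be secreted, and its gene is raised by ER stress.

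The stretches of 220 bases before each transcription start are shown because all 3 genes are known targets of this response. They are from RefSeq, build GRCh38.p14, read 5′ to 3′ on the strand of the gene, with CCAAT and CCACG (on either strand) in capitals. HSPA5 covers chr9:125234853-125241343 on the minus strand in 8 exons, and its stretch is chr9:125241344-125241563. DNAJB9 covers chr7:108569874-108574850 on the plus strand in 3 exons, and its stretch is chr7:108569654-108569873. MANF covers chr3:51385291-51389397 on the plus strand in 4 exons, and its stretch is chr3:51385071-51385290.
HSPA5: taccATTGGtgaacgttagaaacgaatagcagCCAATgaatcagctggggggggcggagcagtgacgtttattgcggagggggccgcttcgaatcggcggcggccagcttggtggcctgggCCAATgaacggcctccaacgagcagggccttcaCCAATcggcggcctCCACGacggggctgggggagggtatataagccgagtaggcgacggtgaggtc
DNAJB9: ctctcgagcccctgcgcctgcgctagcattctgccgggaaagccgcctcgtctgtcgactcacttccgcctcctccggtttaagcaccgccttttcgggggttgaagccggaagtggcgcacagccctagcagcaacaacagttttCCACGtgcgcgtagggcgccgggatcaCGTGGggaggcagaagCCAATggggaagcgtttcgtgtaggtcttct
MANF: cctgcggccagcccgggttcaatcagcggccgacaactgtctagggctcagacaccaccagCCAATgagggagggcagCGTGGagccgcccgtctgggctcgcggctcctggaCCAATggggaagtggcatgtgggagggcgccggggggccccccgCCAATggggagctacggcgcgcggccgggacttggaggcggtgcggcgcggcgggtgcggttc

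The ER stress response element (ERSE), searched on both strands as CCAAT followed after 9 bases by CCACG, joins the binding sequence of the factor NF-Y to that of ATF6 and XBP1. From 250 bases before to 50 after the start, HSPA5 held 1 match, beginning 66 bases before it. This motif was in 27 of 35116 RefSeq promoters of the same length, or 0.0769% (a gene can have several). A second HSPA5 copy, beginning 99 bases before the start, matched only a shorter form that ends in CCA, held by 1.12% of promoters. Neither ERSE-II (ATTGG, 1 base of any kind, CCACG; 0.0541%) nor the core TGACGTGG (0.729%) was in the 3 windows. DNAJB9 held CACGTG, present in 7.26% of promoters, at 73 and 49 bases before its start, each copy overlapping a CCACG. MANF held CCAAT at 159, 107 and 63 bases before its start. Among the tested genes of the ER lists described further on, the full ERSE was found in CALR, CANX, PDIA6 and ERO1B. The full elements are printed for comparison, with CCAAT and CCACG in capitals.
HSPA5, chr9:125241391-125241409, minus strand: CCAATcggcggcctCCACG
CALR, chr19:12938384-12938402, minus strand: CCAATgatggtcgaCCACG
CANX, chr5:179698778-179698796, plus strand: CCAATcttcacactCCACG
PDIA6, chr2:10812853-10812871, minus strand: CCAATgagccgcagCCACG
ERO1B, chr1:236282183-236282201, plus strand: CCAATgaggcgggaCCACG
A match describes the letters only. Where HSPA5 was highest, 2 h after charcoal alone, CALR (0.06), CANX (0.07), PDIA6 (0.07) and ERO1B (0.09) did not pass the test, on the log2(FPKM + 1) scale used below. After median-of-ratios scaling, CALR, CANX and PDIA6 did, at 0.15 each. At 24 h after electrically heated tobacco CANX and ERO1B rose and CALR fell, while PDIA6 (-0.05) did not pass the test, although it did under that scaling (-0.09, adjusted p = 0.0156).

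FPKM sums were 199985 to 220259 per library, and wells of a group correlated at 0.983 to 0.992 across genes. Read counts are not in the files used here, but the low values of shared transcripts placed library depth between 0.753 and 1.58 times that of the median library, the deepest being a 2 h control. The keratins KRT8 and KRT18 were abundant (group means from 483 and 241 FPKM). With KRT19, CLDN1 and TJP1 they made up the 5 of 8 analysed epithelial markers that were expressed. The other epithelial markers, EPCAM, CDH1 and KRT5, stayed below 1 FPKM. Of the fibroblast markers 4 of 7 were expressed (COL1A1, COL1A2, PDGFRB and THY1; summed group means 146 to 361 FPKM), and DCN was listed at 0 throughout. Of the immune markers 2 of 8 were (CD14 and CD68; 18.1 to 29.3 FPKM), with CD3E, MS4A1 and NKG7 among those listed at 0. No endothelial, ciliated or secretory marker passed the filter. Of plasma cell markers only SDC1 did, with JCHAIN and MZB1 listed at 0.

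HSPA5 was among the more abundant transcripts of these cells, ranking 112 of 8531 by mean FPKM, a scale that allows for transcript length. At 2 h the control wells held 189, 196 and 187 FPKM. Charcoal alone gave 303, 314 and 333 FPKM, the highest level of any group. Herbal-charcoal gave 253, 246 and 241 FPKM, tobacco-charcoal 219, 234 and 219 FPKM, and tobacco-electric 218, 222 and 192 FPKM. All 9 wells of the charcoal exposures stood above all control wells, and only well 3 of tobacco-electric fell inside the control range. On the log2(FPKM + 1) scale HSPA5 rose by 0.73 ± 0.06 (SE, n = 3 wells per group, adjusted p = 2.33e-09) after charcoal alone, 1.66 times the control mean. It rose by 0.37 (adjusted p = 2.49e-05) after herbal-charcoal and by 0.23 (adjusted p = 0.00319) after tobacco-charcoal. After tobacco-electric it was 0.14 higher and did not pass the test (adjusted p = 0.0661), although it did under median-of-ratios scaling (0.21, adjusted p = 0.0123) and without that well (0.21, adjusted p = 0.0114). In bulk RNA such as this, a change in the number of cells of a kind and a change in RNA per cell cannot be told apart.

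At 24 h the order of HSPA5 levels had turned over. Control wells held 177, 187 and 173 FPKM, charcoal alone 178, 176 and 171 FPKM, and herbal-charcoal 190.5, 178 and 201 FPKM. Tobacco-charcoal gave 227, 195 and 201 FPKM, and tobacco-electric 296, 283 and 316 FPKM. The tobacco-electric wells stood above all other wells of that time, while charcoal alone overlapped control. HSPA5 rose by 0.74 ± 0.06 (adjusted p = 3.37e-10) after tobacco-electric, 1.67 times the control mean, and by 0.21 (adjusted p = 0.005) after tobacco-charcoal. The latter call rested on the first tobacco-charcoal well, without which the difference was 0.15 (adjusted p = 0.0562). After charcoal alone the difference was -0.03, with a 95% interval of -0.15 to 0.09, and after herbal-charcoal it was 0.08 (-0.04 to 0.21).

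DNAJB9 was far less abundant, ranking 3791 of 8531, but had the widest span of the 3, with group means from 6.36 to 12.4 FPKM. At 2 h control wells held 6.99, 6.17 and 6.49 FPKM. Charcoal alone gave 12.5, 10.8 and 12.3 FPKM, herbal-charcoal 11.96, 11.7 and 11.7 FPKM, tobacco-charcoal 9.54, 8.89 and 9.65 FPKM, and tobacco-electric 8.66, 8.54 and 7.77 FPKM. All 12 exposed wells stood above all control wells. DNAJB9 rose after each exposure, by 0.77 ± 0.08 after charcoal alone (adjusted p = 6.42e-08), 0.76 after herbal-charcoal (adjusted p = 5.62e-08), 0.46 after tobacco-charcoal (adjusted p = 6.81e-05) and 0.30 after tobacco-electric (adjusted p = 0.00382).

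At 24 h DNAJB9 was back near control after the exposures without tobacco and at its highest after tobacco-electric. Control wells held 6.24, 6.39 and 6.44 FPKM, charcoal alone 7.03, 6.73 and 7.30 FPKM, and herbal-charcoal 6.93, 6.78 and 7.23 FPKM. Tobacco-charcoal gave 8.65, 8.25 and 7.08 FPKM, and tobacco-electric 12.9, 10.3 and 14.05 FPKM. Every exposed well stood above every control well, but by little after charcoal alone (0.12, adjusted p = 0.369) and herbal-charcoal (0.12, adjusted p = 0.286). These 2 differences did not pass the test. Wells can lie apart without a call, and the share of all tested genes that did so is not given here. DNAJB9 rose by 0.29 (adjusted p = 0.00461) after tobacco-charcoal and by 0.86 ± 0.08 (adjusted p = 2.32e-09) after tobacco-electric, 1.96 times the control mean. The second tobacco-electric well was the lowest of its group for both HSPA5 and DNAJB9, and without it the rises were 0.77 and 0.98. GENCODE places DNAJB9 across 99 bases of PNPLA8 and 183 bases of THAP5 on the opposite strand, and since the strand setting is not given in the sources used here, reads from there cannot be told apart.

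MANF, ranking 686 of 8531, moved least. At 2 h control wells held 67.8, 66.8 and 67.3 FPKM, and charcoal alone gave 83.3, 89.6 and 87.7 FPKM, the highest MANF levels in the study. Herbal-charcoal gave 74.4, 67.2 and 67.9 FPKM, tobacco-charcoal 67.7, 75.3 and 67.1 FPKM, and tobacco-electric 73.4, 73.5 and 77.3 FPKM. Herbal-charcoal and tobacco-charcoal overlapped control, while charcoal alone and tobacco-electric did not. MANF rose by 0.36 ± 0.05 (adjusted p = 2.41e-06) after charcoal alone and by 0.15 (adjusted p = 0.0157) after tobacco-electric, the second call being lost without well 3 of tobacco-electric (0.12, adjusted p = 0.0775). The differences of 0.05 after herbal-charcoal (adjusted p = 0.415) and 0.05 after tobacco-charcoal (adjusted p = 0.393) did not pass the test, but did under median-of-ratios scaling, at 0.14 (adjusted p = 0.0194) and 0.15 (adjusted p = 0.0142).

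At 24 h no exposure changed MANF. Control wells held 62.0, 61.0 and 56.6 FPKM, charcoal alone 61.1, 60.7 and 59.6 FPKM, and herbal-charcoal 56.8, 60.2 and 57.5 FPKM. Tobacco-charcoal gave 64.3, 63.4 and 60.3 FPKM, and tobacco-electric 59.6, 63.1 and 61.6 FPKM. All 4 exposed groups overlapped control. After tobacco-electric, where HSPA5 and DNAJB9 were high, the MANF difference was 0.04 with a 95% interval of -0.06 to 0.13 (adjusted p = 0.51). That interval lies below the rises of 0.74 and 0.86 of the other genes.

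**Figure D1:**
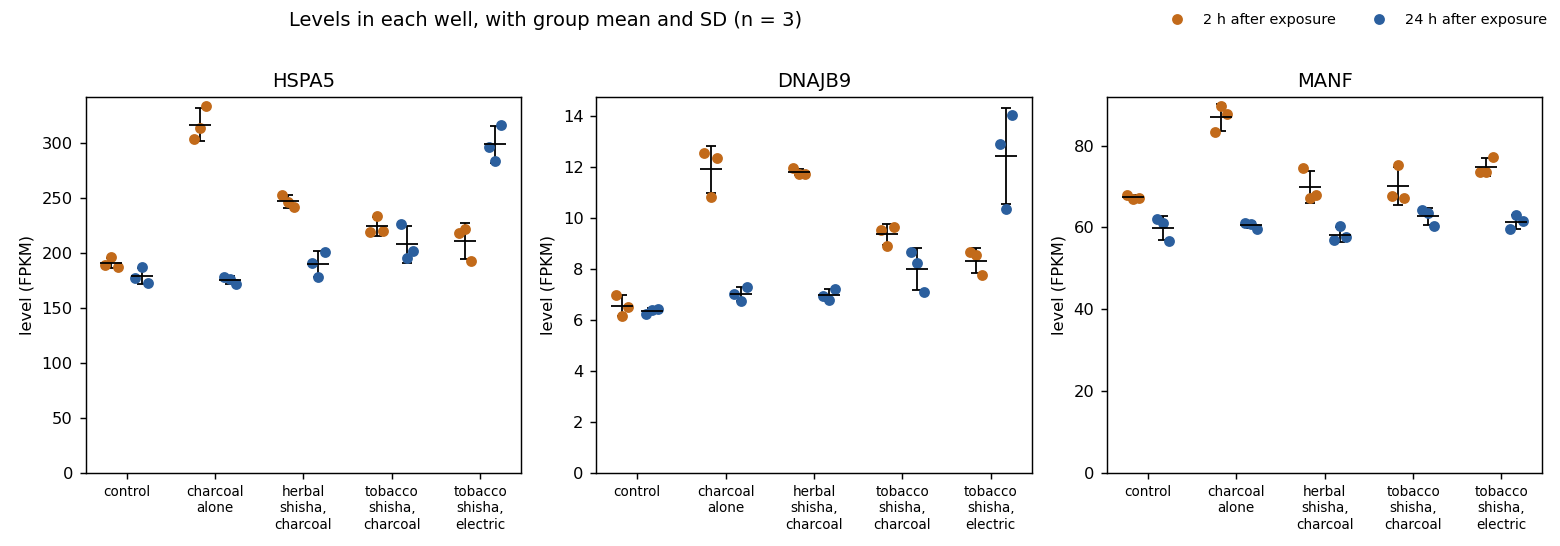
Level of each gene in FPKM (vertical axis, from 0) in each of the 30 wells, by exposure, with 2 h in orange and 24 h in blue; bars give the mean and SD of 3 wells. HSPA5 and MANF reach 333 and 89.6 FPKM in single wells 2 h after charcoal alone, and HSPA5 and DNAJB9 stand high again 24 h after tobacco-electric, where MANF does not.

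In counts, 3 of 3 genes rose 2 h after charcoal alone, where 8.16% of all tested genes rose and 24.4% changed in either direction. After herbal-charcoal 2 of 3 rose (10.6% of all, 38.2% either way), as did 2 of 3 after tobacco-charcoal (8.5%, 35.2%) and 2 of 3 after tobacco-electric (9.27%, 34%). At 24 h the count was 0 of 3 after charcoal alone (6.05%, 9.87%) and after herbal-charcoal (16.5%, 26.8%), and 2 of 3 after tobacco-charcoal (25.9%, 44.5%) and tobacco-electric (34.3%, 63.8%, with 29.5% falling). The 24 h backgrounds after tobacco are high, so a count of 2 of 3 is no result there. By size, among all tested genes, the HSPA5 and DNAJB9 rises 24 h after tobacco-electric ranked 464 and 306 from the highest. Their rises 2 h after charcoal alone ranked 235 and 213, and that of MANF ranked 572. Median-of-ratios scaling moved the median of all genes by up to 0.12 (log2), and at 2 h it shifted the split of all calls upward. After charcoal alone 956 genes were then higher and 688 lower, against 696 and 1385, and the other 2 h exposures went likewise, from 901 and 2359 to 1627 and 1622 after herbal-charcoal, from 725 and 2276 to 1467 and 1508 after tobacco-charcoal, and from 791 and 2112 to 1434 and 1679 after tobacco-electric. At 24 h herbal-charcoal went from 1406 and 883 to 999 and 1087, charcoal alone from 516 and 326 to 416 and 434, and tobacco-charcoal from 2206 and 1590 to 1813 and 1870.

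**Figure D2:**
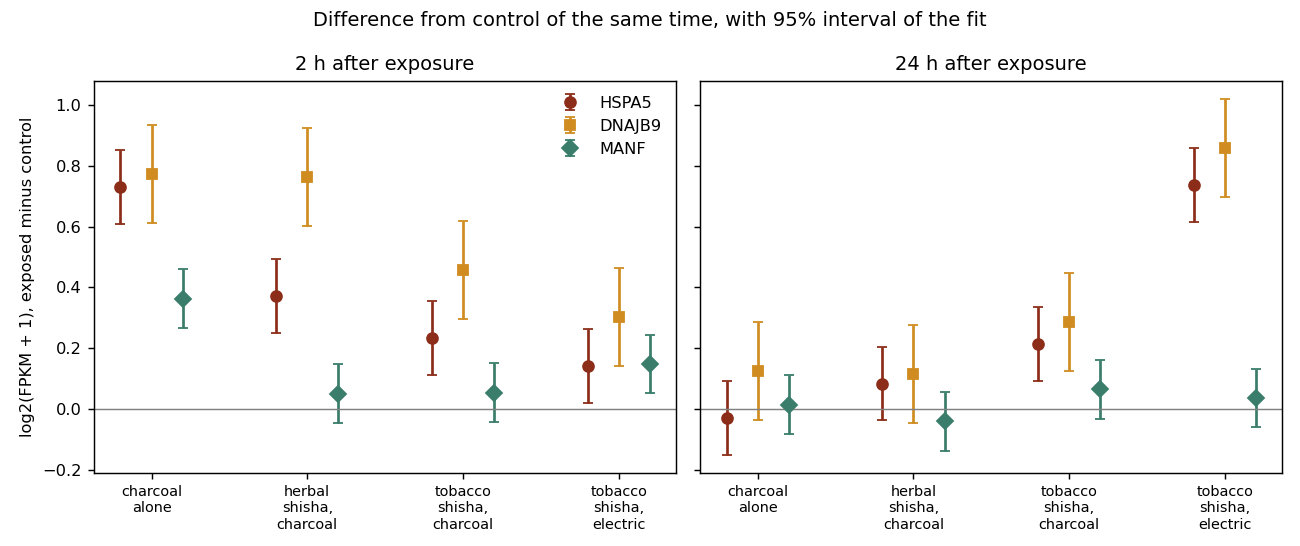
Difference from control of the same time in log2(FPKM + 1) (vertical axis) for each exposure, at 2 h (left) and 24 h (right); bars are 95% intervals of the fit. At 2 h the points for HSPA5 step down from 0.73 after charcoal alone to 0.14 after tobacco-electric, and at 24 h HSPA5 and DNAJB9 reach 0.74 and 0.86 after tobacco-electric.

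The turn between the times was tested within each condition. In control wells neither HSPA5 (-0.09) nor DNAJB9 (-0.04) passed the test between 2 h and 24 h, and MANF fell by 0.17 (adjusted p = 0.0158; 16.9% of all genes changed). That call was lost without control well 1 at 2 h (-0.16, adjusted p = 0.0526) or well 3 at 24 h (-0.13, adjusted p = 0.099). After charcoal alone all 3 fell, HSPA5 by 0.85, DNAJB9 by 0.68 and MANF by 0.51 (42.5% of all genes changed, 12.4% fell). After herbal-charcoal all 3 fell as well, by 0.38, 0.68 and 0.26 (50.5% changed, 13.7% fell). After tobacco-charcoal DNAJB9 fell by 0.21 (adjusted p = 0.0273) and MANF by 0.16 (adjusted p = 0.00675), while HSPA5 differed by -0.11 (adjusted p = 0.11; 55.4% changed). The DNAJB9 call was lost without tobacco-charcoal well 1 (-0.19) or 3 (-0.19) at 2 h or well 3 at 24 h (-0.13), and the MANF call without well 2 at 2 h (-0.10), while HSPA5 passed without well 1 at 24 h (-0.18). Fitted on these groups alone, both DNAJB9 and MANF had an adjusted p of 0.0726. After tobacco-electric HSPA5 and DNAJB9 rose by 0.50 and 0.52 and MANF fell by 0.28 (adjusted p = 1.35e-05; 67.8% changed). The difference of the exposure effect between the times, an interaction in the same fit, passed the test downward for all 3 genes after charcoal alone (7% of all genes did so) and for HSPA5 and DNAJB9 after herbal-charcoal (8.3%). It passed upward for HSPA5 and DNAJB9 after tobacco-electric (34.8%), and for none of the 3 after tobacco-charcoal (41.1% either way). Scaling by median of ratios moved these backgrounds too. Between the times, the genes that were higher and lower went from 2570 and 1058 to 1540 and 1623 after charcoal alone, from 3138 and 1172 to 1876 and 1901 after herbal-charcoal, and from 3365 and 1361 to 2050 and 2112 after tobacco-charcoal. For the interaction they went from 1382 and 597 to 716 and 889, from 2048 and 708 to 1020 and 1174, and from 2582 and 920 to 1394 and 1508 in the same order.

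Set against each other at 2 h, charcoal alone gave more HSPA5 than herbal-charcoal (which was lower by 0.36, adjusted p = 0.000137), tobacco-charcoal (difference -0.50, adjusted p = 1.08e-05) and tobacco-electric (-0.59, adjusted p = 7.81e-08). MANF was likewise lower than after charcoal alone in the same 3 comparisons, at -0.31, -0.31 and -0.21 (adjusted p = 5.12e-05, 0.000136 and 0.00106). DNAJB9 was lower after tobacco-charcoal (-0.31, adjusted p = 0.00705) and tobacco-electric (-0.47, adjusted p = 7.11e-05), but level with herbal-charcoal (-0.01, 95% interval -0.17 to 0.15). In these comparisons 14.3%, 11.8% and 18% of all genes were lower than after charcoal alone. The herbal and tobacco shishas on charcoal differed in none of the 3 genes at 2 h (0.61% of all genes did), though every DNAJB9 well was lower with tobacco (-0.31, adjusted p = 0.0672). Tobacco on the electric heater and on charcoal did not differ past the test in any of the 3 genes at 2 h either (23.3% of all genes did), with intervals of -0.21 to 0.03 for HSPA5, -0.31 to 0.01 for DNAJB9 and -0.0021 to 0.19 for MANF (a MANF call without well 2 of tobacco-charcoal, 0.15, adjusted p = 0.029). Against herbal-charcoal, tobacco-electric was lower in HSPA5 (-0.23, adjusted p = 0.00511) and DNAJB9 (-0.46, adjusted p = 0.00012; 13.3% of all genes were lower), while MANF was 0.10 higher (adjusted p = 0.124; 0.14 and 0.0383 without well 1 of herbal-charcoal). The HSPA5 call was lost without well 3 of tobacco-electric (-0.17, adjusted p = 0.052).

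At 24 h the tobacco exposures differed from each other. HSPA5 was 0.52 higher (adjusted p = 3.62e-07) and DNAJB9 0.57 higher (adjusted p = 3.73e-06) with the electric heater than with charcoal under the same kind of shisha, whereas MANF differed by -0.03 (95% interval -0.13 to 0.07); 22.9% of all genes were higher. Tobacco-electric also exceeded charcoal alone (0.77 for HSPA5 and 0.73 for DNAJB9; 31.9% of all genes higher) and herbal-charcoal (0.65 and 0.74; 27.7%). Tobacco-charcoal exceeded charcoal alone in HSPA5 only (0.24, adjusted p = 0.00186; 23.5%), with DNAJB9 at 0.16 (adjusted p = 0.0968; 0.24 and 0.0223 without well 3 of tobacco-charcoal). None of the 3 genes differed between the herbal and tobacco shishas on charcoal (5.12% of all genes did) or between herbal-charcoal and charcoal alone (31.5%). Since each kind of smoke had its own dose, these comparisons are between exposures as given.

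The ratio of 2 genes within a well does not depend on library scaling. HSPA5 to MANF was 2.83 ± 0.09 (SD, n = 3) in control wells at 2 h and 2.99 ± 0.12 at 24 h. It was 3.65 ± 0.15 at 2 h after charcoal alone, 3.54 ± 0.13 after herbal-charcoal and 2.82 ± 0.29 after tobacco-electric. At 24 h it was 2.90 ± 0.02 after charcoal alone and 4.87 ± 0.34 after tobacco-electric, where the wells gave 4.97, 4.49 and 5.14. DNAJB9 to MANF went from 0.106 ± 0.007 in the 24 h control to 0.203 ± 0.034 after tobacco-electric, all 3 wells lying above control. HSPA5 to DNAJB9 was 28.1 ± 1.2 and 24.3 ± 2.7 in the same groups, which overlapped. In 4 of 8 comparisons with control all exposed wells had a lower ratio of HSPA5 to DNAJB9, namely herbal-charcoal at 2 h (20.9 ± 0.3 against 29.2 ± 2.4), tobacco-charcoal (24.0 ± 2.0) and tobacco-electric (25.3 ± 0.6) at 2 h, and charcoal alone at 24 h (25.0 ± 1.4). With 3 wells against 3 the smallest two-sided exact permutation p is 0.1, so that test cannot take a single ratio below 0.05. These 4 comparisons reached 0.1 (0.171 adjusted over 24 ratio comparisons). So did 5 of 8 comparisons for each ratio to MANF, with all exposed wells above control. Those were the charcoal exposures at 2 h and both tobacco exposures at 24 h. The ratios were not put into the fit over all 30 libraries. Over the 30 libraries log2 levels correlated at 0.92 for HSPA5 and DNAJB9, 0.58 for HSPA5 and MANF, and 0.48 for DNAJB9 and MANF. These describe points that share groups, and the deviations from group means correlated at 0.43, 0.15 and -0.24.

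**Figure D3:**
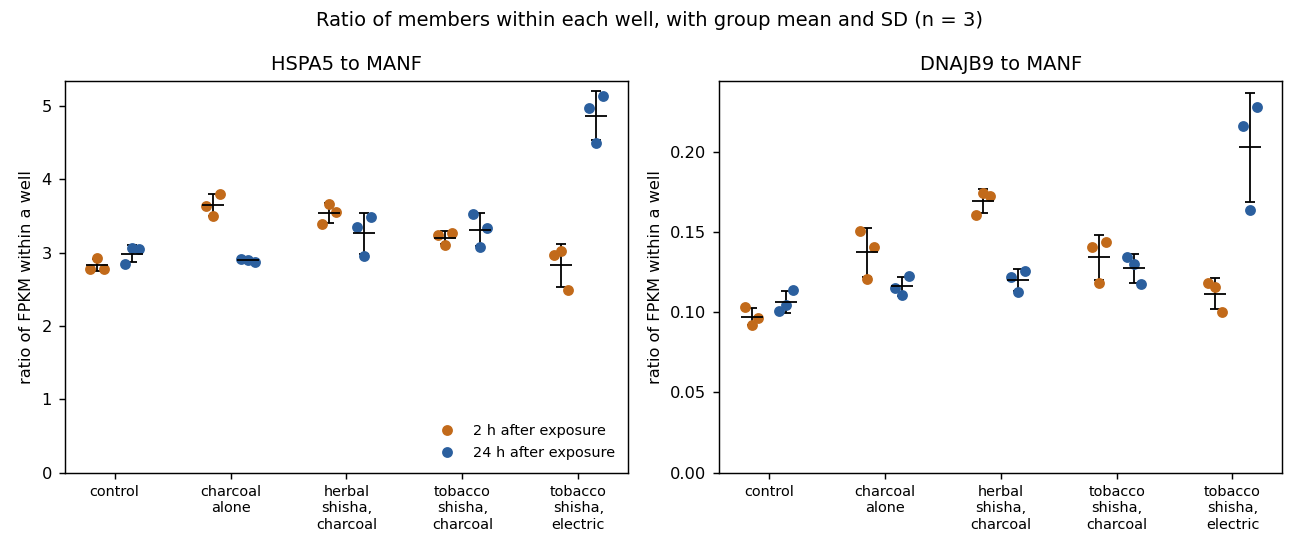
Ratio of FPKM within each well (vertical axes, from 0) for HSPA5 to MANF and DNAJB9 to MANF, by exposure, with 2 h in orange and 24 h in blue; bars give the mean and SD of 3 wells. The ratio of HSPA5 to MANF is 4.87 after tobacco-electric at 24 h against 2.99 in control.

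Of 14 other ER chaperones listed, 8 were tested, HSP90B1, HYOU1, CRELD2, DNAJC3 and DNAJC1 were not analysed here, and CDNF was below the filter. At 2 h after charcoal alone 2 of 8 rose and none fell (median 0.07, against -0.08 for all genes tested). There 8.16% of all tested genes rose and 24.4% changed either way. SDF2L1, which forms a complex with DNAJB11 and keeps unfolded proteins from clumping, went from 35.2 ± 0.9 to 47.7 ± 2.0 FPKM (0.43, adjusted p = 0.0184), and DNAJB11, another J-domain partner of HSPA5, from 81.3 ± 2.7 to 92.6 ± 2.0 FPKM (0.19, adjusted p = 0.000535). After herbal-charcoal 1 of 8 rose and 2 fell (median -0.02), among them SDF2L1 (-0.38), whose wells were at 27.5, 27.7 and 25.4 FPKM against 36.1, 34.3 and 35.1 FPKM in control. Under median-of-ratios scaling no gene of the list fell there (SDF2L1 -0.29, adjusted p = 0.0865). That scaling called 4 of 8 higher after charcoal alone, CALR and CANX being the added ones. Of all 8531 tested genes 956 were then higher after charcoal alone, and 1622 lower after herbal-charcoal. SDF2L1 did not pass the test after tobacco-charcoal (-0.12) or tobacco-electric (0.16) at 2 h. In these groups 1 of 8 rose and 1 fell, and 1 rose and 3 fell (medians -0.04 and 0.07). The shares of all tested genes that rose at 2 h were 10.6%, 8.5% and 9.27% after herbal-charcoal, tobacco-charcoal and tobacco-electric. In the same order 38.2%, 35.2% and 34% changed either way. At 24 h none of 8 changed after charcoal alone (median -0.09). After herbal-charcoal 4 rose and 1 fell (0.14), where 16.5% of all tested genes rose. With tobacco-charcoal 4 rose and 1 fell (0.24), where 25.9% of all rose, and under median-of-ratios scaling 2 rose and 2 fell. With tobacco-electric 3 rose and 4 fell (-0.27), where 34.3% of all rose and 29.5% fell. These last counts alone say little about ER chaperones. After tobacco-electric the risers were CANX, the membrane lectin chaperone (260 ± 7 to 363 ± 13 FPKM, 0.48), SDF2L1 (30.4 ± 1.7 to 42.4 ± 5.1 FPKM, 0.46) and DNAJB11 (0.39), and the fallers UGGT1, which tags misfolded glycoproteins for another round (15.8 ± 0.5 to 8.98 ± 0.51 FPKM, -0.75), DNAJC10, SIL1 and CALR. SDF2L1 also rose after tobacco-charcoal at 24 h (0.33; 0.29 with adjusted p = 0.0751 under that scaling), and was 0.05 and 0.07 above control after charcoal alone and herbal-charcoal, which did not pass the test.

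Of 10 tested disulfide and proline isomerases none changed after charcoal alone, 2 rose and 2 fell after herbal-charcoal (PPIB and PDIA6 against FKBP2 and PDIA3), 1 fell after tobacco-charcoal, and 1 rose and 1 fell after tobacco-electric (PPIB 0.13, FKBP14 -0.28); medians were -0.05 to 0.01. Among all tested genes 8.16% to 10.6% rose in the exposures at 2 h, and 24.4% to 38.2% changed either way. Under median-of-ratios scaling none of these isomerases fell after any charcoal exposure at 2 h, and 2 rose after each. With that scaling 2 rose and 3 fell 24 h after tobacco-electric. At 2 h it called 956 to 1627 of all 8531 tested genes higher and 688 to 1679 lower. At 24 h 3 rose and 2 fell after tobacco-electric, with ERO1B, an oxidase that recharges the disulfide isomerases, at 1.67 ± 0.06 and 2.85 ± 0.35 FPKM (0.52) and PDIA5 at 9.51 ± 0.37 and 4.90 ± 0.49 FPKM (-0.83). FKBP14 rose by 0.38 after tobacco-charcoal, where 4 rose and 2 fell. Of all tested genes 34.3% rose and 29.5% fell after tobacco-electric, and 25.9% rose after tobacco-charcoal. Of 10 tested genes of ER-associated degradation, which pulls misfolded proteins out for destruction, DERL1 alone rose at 2 h after each charcoal exposure (0.47, 0.58 and 0.58), from a control whose wells varied widely (22.7 ± 8.7 FPKM). None fell after charcoal alone, 2 after herbal-charcoal (EDEM3 -0.21, ERLEC1 -0.19) and 3 after tobacco-charcoal (EDEM3 -0.29, ERLEC1 -0.20, OS9 -0.19). EDEM3, a mannosidase of the same pathway, also fell after tobacco-electric (5.31 ± 0.29 to 3.20 ± 0.55 FPKM, -0.59), with EDEM1 (-0.22). Under median-of-ratios scaling the EDEM1 call was lost (-0.16, adjusted p = 0.0746), EDEM3 kept its falls after tobacco-charcoal and tobacco-electric but no other charcoal fall was called, and 3 of 10 genes of this list rose after each of the 4 exposures at 2 h. At 24 h after tobacco-electric 3 of 10 rose and 3 fell, where 34.3% of all tested genes rose and 29.5% fell. Among them VIMP, the name used in the files for SELENOS, rose from 18.3 ± 0.9 to 30.1 ± 3.1 FPKM (0.68), DERL1 rose by 0.66 and OS9 fell (-0.50). OS9 also fell after tobacco-charcoal (-0.68) and herbal-charcoal (-0.49).

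Among the sensors of the response, the PERK gene EIF2AK3 had, like HSPA5, its highest level 2 h after charcoal alone. At 2 h its wells held 4.15, 4.73 and 4.46 FPKM in control, and 7.27, 8.72 and 7.59 FPKM after charcoal alone. They held 6.31, 6.64 and 6.39 FPKM after herbal-charcoal, 6.03, 5.80 and 6.03 FPKM after tobacco-charcoal, and 5.03, 5.22 and 2.73 FPKM after tobacco-electric. EIF2AK3 thus rose by 0.70, 0.45 and 0.35 with the 3 charcoal exposures, and was -0.07 from control with the electric heater, where 1 well lay below all control wells. Against charcoal alone, tobacco-electric was lower in EIF2AK3 (difference -0.77, adjusted p = 2.12e-05). At 24 h EIF2AK3 passed the test after none of the exposures (-0.09 to 0.11). The IRE1 gene ERN1 was low throughout. At 24 h its wells held 0.505, 0.289 and 0.370 FPKM in control and 1.68, 1.08 and 1.95 FPKM after tobacco-electric (0.88). Only in these tobacco-electric wells did ERN1 reach 1 FPKM, so it passed the filter through that group alone. Its rise there is therefore a description and no test result. It had also risen at 2 h after charcoal alone (0.27) and tobacco-electric (0.24). Against control of the same time ATF6 rose after no exposure and fell after tobacco-electric at both times (-0.20 and -0.12). NFYB, a subunit of NF-Y, fell 24 h after tobacco-electric from 17.3 ± 1.6 to 7.76 ± 0.69 FPKM (-1.06). It also fell after tobacco-charcoal (-0.77) and herbal-charcoal (-0.33), and rose after charcoal alone (0.34, adjusted p = 0.0343; 0.31 and 0.0559 under median-of-ratios scaling). MBTPS1, the protease that releases ATF6, fell after tobacco-electric (-0.53). XBP1 and ATF4 were not analysed here. In all, 2 of 8 tested genes of the list (EIF2AK3 and ERN1) rose and 1 fell after charcoal alone at 2 h (median -0.05). In that comparison 8.16% of all tested genes rose and 24.4% changed either way. Under median-of-ratios scaling none fell there. After tobacco-electric at 24 h 3 fell (median 0.02, ERN1 included). The only gene called higher there was ERN1, which passed the filter through that group and so is not counted as a riser. Of all tested genes 34.3% rose and 29.5% fell in that group.

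Of the genes downstream of PERK and ATF4, 3 of 8 tested rose at 2 h after every exposure, namely ATF3, PPP1R15A and CHAC1. In these exposures 8.16% to 10.6% of all tested genes rose. Each of the 3 was higher after tobacco-electric than after charcoal alone (by 2.00, 1.24 and 0.97, adjusted p = 5.31e-06, 0.000365 and 0.000276). ATF3, a stress-induced transcription factor, was at 3.23 ± 0.55 FPKM in control and 114 ± 31 FPKM after tobacco-electric (4.73, against 2.73 after charcoal alone). PPP1R15A, which reverses the PERK signal, had control wells at 29.2, 28.9 and 27.9 FPKM, and rose by 1.40, 2.04, 2.00 and 2.64 in the order charcoal alone, herbal-charcoal, tobacco-charcoal, tobacco-electric. CHAC1, which degrades glutathione, rose by 0.67 after charcoal alone and by 1.64 after tobacco-electric (1.07 ± 0.20 to 5.74 ± 2.38 FPKM). DDIT4 fell after the charcoal exposures (-1.39, -1.29 and -1.29) and was -0.03 from control after tobacco-electric. At 24 h 4 of 8 rose after tobacco-electric (PPP1R15A 1.26, SESN2 1.29, ATF3 0.84, TRIB3 0.81) and 2 fell. Of all tested genes 34.3% rose and 29.5% fell there. After charcoal alone 4 fell and none rose, with ASNS, the asparagine synthetase, at 17.7 ± 1.6 and 3.75 ± 0.11 FPKM (-1.98). In that comparison 9.87% of all tested genes changed. The controls were not level between the times. CHAC1 control wells held 1.24, 0.855 and 1.13 FPKM at 2 h and 4.24, 4.13 and 3.65 FPKM at 24 h. Charcoal alone gave 1.90, 1.35 and 1.19 FPKM at 24 h. PPP1R15A control wells went the other way, to 22.5, 25.4 and 23.0 FPKM. What these shifts add to the falls was not tested. PPP1R15A was then at -0.37, -0.18 and -0.17 after the charcoal exposures, which did not pass the test, and DDIT4 was lowest after tobacco-charcoal (-1.92). The medians of the list were -0.03 at 2 h after charcoal alone and 0.36 at 24 h after tobacco-electric, against -0.08 and 0.03 for all genes tested.

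Of 8 tested chaperones of the cytosol none changed 2 h after charcoal alone (median 0.06), and 8 of 8 rose 24 h after tobacco-electric (median 1.47; 34.3% of all tested genes rose). HSPA1A, the stress-inducible Hsp70 of the cytosol, held 13.6, 13.6 and 15.3 FPKM in the 24 h control and 234, 81.4 and 341 FPKM after tobacco-electric (3.63). HSPH1, its exchange factor, held 38.2, 30.01 and 35.3 against 161, 108 and 232 FPKM (2.18). The second tobacco-electric well was lowest for both, as for HSPA5, DNAJB9, ERN1 and PPP1R15A (28.6 FPKM against 88.7 and 75.9), and its part in those rises was not tested beyond the HSPA5 and DNAJB9 values without it given above. HSPA1B, at 3.45, is nearly identical in sequence to HSPA1A, so short reads may be shared between them. At 2 h after tobacco-electric 3 of 8 rose, DNAJB1 by 1.40, HSPA1B by 1.34 and HSPA1A by 1.26. HSPA5 did not pass the test in that group, where 9.27% of all tested genes rose. After charcoal alone at 2 h 24.4% of all tested genes changed. After tobacco-charcoal at 24 h 5 of 8 rose, and after herbal-charcoal 3 of 8 (3 and 2 under median-of-ratios scaling). Of all tested genes 25.9% and 16.5% rose in these groups.

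**Figure D4:**
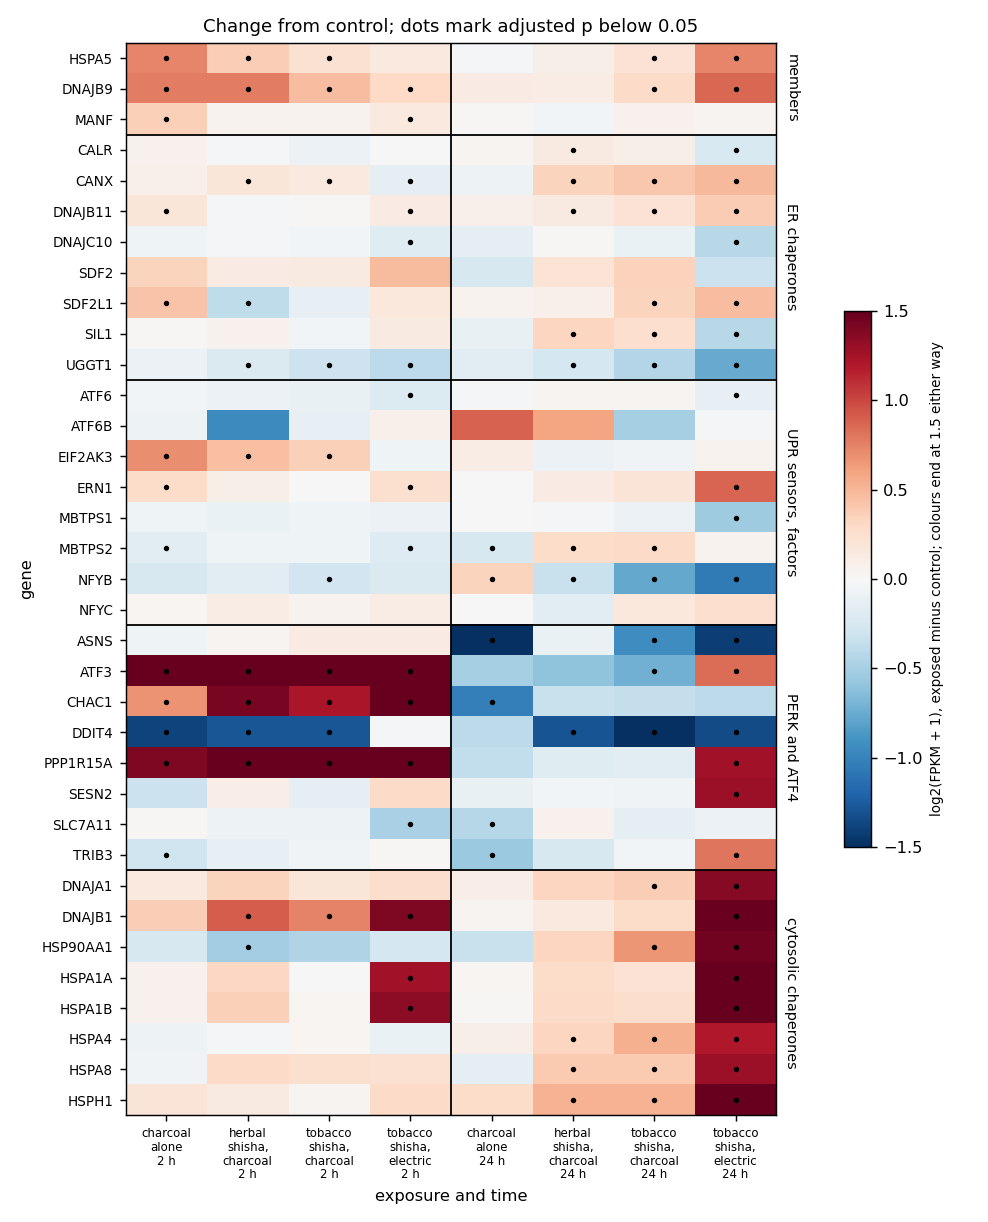
Difference from control in log2(FPKM + 1) (colour, ending at 1.5 either way) of HSPA5, DNAJB9 and MANF and of 4 gene lists (rows) for each exposure at 2 h and 24 h (columns); dots mark an adjusted p below 0.05. Cytosolic chaperones are called in 8 of 8 rows 24 h after tobacco-electric, and no such row is called 2 h after charcoal alone, where HSPA5, DNAJB9 and MANF are.

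Over the 30 libraries, the tested genes whose log2 levels correlated most with HSPA5 were MFSD2A (0.94), ARHGEF5 (0.93), OR2A7 (0.93) and RDH10 (0.93). MFSD2A, a lipid transporter with group means from 1.34 to 6.95 FPKM, was also second for DNAJB9 (0.95), after RELT (0.95) and before CDC42SE1 (0.94), SLC35E4 (0.93) and the cytokine IL11 (0.93; 2.48 to 47.6 FPKM). The genes nearest to MANF were others, with lower values: CDC42EP1, ADAMTS5 and KIAA1217 (0.89 each), FAM43B and UBALD1 (0.88 each). ARHGEF5, ADAMTS5 and KIAA1217 averaged below 1 FPKM and passed the filter through the libraries where they were high (highest group means 1.39, 2.34 and 1.28 FPKM). The part of that filter in their likeness was not tested. These likenesses are descriptions over libraries that share 10 groups.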

How the data were processed

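RNA was measured in 30 libraries of BEAS-2B cells (TruSeq kit, 1 ug of total RNA, 50 bp single reads). Per the submitters' processing notes, HISAT2 2.1.0, StringTie 1.3.4d and hg38 were used; the sources used here give no annotation, filter or strand setting. The authors deposited FPKM values per transcript, with no counts. Where a name repeated, the row with the highest mean was kept. The 8531 genes that reached 1 FPKM in 3 libraries or more were tested as log2(FPKM + 1) with limma 3.58.1 (trend, R 4.3.3, Python 3.11.15), 1 mean per group over all 30 libraries, 20 residual degrees of freedom, with Benjamini-Hochberg adjustment over all genes tested in each comparison. Calls needed an adjusted p under 0.05, and only called genes are said to have risen, fallen or changed. The fold scale understates changes of low genes. SE pool the spread of all groups, and ± after FPKM is the SD of 3 wells. Statements that wells lay above or below control describe those wells, since the share of all tested genes that separate so is not given. The fit was tested on simulated data.

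Absolute depth is unknown. Relative depth came from ratios of values below 0.05 FPKM between libraries, which gathered at 1 value per pair, and all 435 pairs fitted 1 set of depths within 0.02 (log2). Whether replicate numbers pair the samples is unsettled, and the main fit does not use them. In each list and time, the 3 called genes with the largest change in any exposure were named, with SDF2L1, PPP1R15A and, for likeness, the 5 most correlated genes; others were chosen after their values were seen, and a few genes that these rules name are not reported here. HERPUD1, HYOU1, CRELD2, XBP1 and HSP90B1 belonged to the same rule and were not analysed here. The 3 genes and all lists were chosen with earlier results of these data known. Alternatives were a pseudocount of 0.1, no filter, a replicate block, the compared groups alone, median-of-ratios scaling, summed rows, and each library left out.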

Additional observations from a re-analysis of the deposited data

Results flagged for a closer look

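The effect of an exposure on the 3 genes differed between 24 h and 2 h, by the interaction in the limma fit, in 7 of 12 cases, each with 3 wells in each of 4 groups (10 of 12 under median-of-ratios scaling). Of all tested genes 7% passed this test downward after charcoal alone and 8.3% after herbal-charcoal, and 34.8% passed it upward after tobacco-electric. The interaction is signed, so downward includes genes that fell more at 24 h, and upward includes genes whose fall faded. After charcoal alone the effect was smaller at 24 h by -0.76 ± 0.08 (SE, log2) for HSPA5 (adjusted p = 5.74e-07), by -0.65 ± 0.11 for DNAJB9 (adjusted p = 0.000142) and by -0.35 ± 0.07 for MANF (adjusted p = 0.000448). After herbal-charcoal it was smaller by -0.29 ± 0.08 for HSPA5 (adjusted p = 0.0109) and by -0.65 ± 0.11 for DNAJB9 (adjusted p = 0.000111). After tobacco-electric it was larger at 24 h by 0.59 ± 0.08 for HSPA5 (adjusted p = 2.66e-06) and by 0.55 ± 0.11 for DNAJB9 (adjusted p = 0.000174).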

How the results depend on the processing

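Absolute depth is unknown, and libraries differed 2.09-fold in relative depth. The rises of HSPA5, DNAJB9 and MANF 2 h after charcoal alone, and of HSPA5 and DNAJB9 24 h after tobacco-electric, were called in every alternative run. A pseudocount of 0.1, no filter, summed rows and the replicate block changed no call or direction of the 3 genes. With the replicate block DNAJB9 rose by 0.77 after charcoal alone at 2 h (adjusted p = 6.12e-08). Whether the replicate numbers pair the samples is unsettled. Same-numbered deviations correlated weakly, at -0.22 to 0.23 (10 of 135 pairs over 0.1). Yet 20 of 30 libraries were nearest to their own number, more than a random pick among 3 numbers would give. The cause of the changes that follow was not tested. Median-of-ratios scaling brought past the threshold HSPA5 (0.21) after tobacco-electric and MANF after herbal-charcoal (0.14) and tobacco-charcoal (0.15) at 2 h, HSPA5 between the times after tobacco-charcoal (-0.25), and the interactions of DNAJB9 after tobacco-charcoal (-0.30) and of MANF after herbal-charcoal (-0.22) and tobacco-electric (-0.21). It turned the sign of 4 uncalled differences, DNAJB9 between herbal-charcoal and charcoal alone at 2 h (0.00021), MANF 24 h after charcoal alone (-0.011) and tobacco-electric (-0.0014), and MANF's tobacco-charcoal interaction (-0.13). With the compared groups alone, which leaves fewer samples, the falls of DNAJB9 (-0.21) and MANF (-0.16) between the times after tobacco-charcoal lost their calls, and 1465 genes were called 24 h after herbal-charcoal against 2289.

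Leaving out 1 library at a time, HSPA5 after tobacco-charcoal at 24 h ranged from 0.15 to 0.26, lost without its replicate 1. At 2 h, replicate 3 of tobacco-electric decided HSPA5 against control (0.10 to 0.21) and against herbal-charcoal (-0.27 to -0.17), and MANF against control (0.12 to 0.16). MANF in control between the times ranged from -0.19 to -0.13, lost without replicate 1 at 2 h or 3 at 24 h. After tobacco-charcoal between the times, DNAJB9 ranged from -0.26 to -0.13 (lost without replicate 1 or 3 at 2 h or 3 at 24 h), MANF from -0.19 to -0.10 (lost without 2 at 2 h) and HSPA5 from -0.18 to -0.069 (called without 1 at 24 h). Calls were gained for DNAJB9 in tobacco-charcoal over charcoal alone at 24 h (0.11 to 0.24, without tobacco-charcoal 3) and for MANF at 2 h in tobacco-electric over herbal-charcoal (0.071 to 0.14, without herbal-charcoal 1) and over tobacco-charcoal (0.064 to 0.15, without tobacco-charcoal 2). Uncalled differences that crossed 0 were DNAJB9 in control between the times (-0.073 to 0.0053) and in herbal-charcoal over charcoal alone at 24 h (-0.033 to 0.018) and 2 h (-0.070 to 0.028), HSPA5 after charcoal alone at 24 h (-0.054 to 0.0035), its tobacco-charcoal interaction (-0.084 to 0.023), and for MANF charcoal alone at 24 h (-0.024 to 0.040), tobacco-electric at 24 h (-0.0030 to 0.062), the tobacco-charcoal interaction (-0.029 to 0.063) and tobacco-charcoal over herbal-charcoal at 2 h (-0.050 to 0.049). Genes called ranged from 511 to 602 at 24 h after charcoal alone, against 842, every one but charcoal replicate 1 moving it past 1.5 times, and from 1420 to 2317 after herbal-charcoal, with 1420 without its replicate 3 and 1436 without control replicate 2.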

Other observations

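Of 14 tested genes of translocation and ER to Golgi transport, none changed 2 h after charcoal alone (median -0.03, against -0.08 for all genes tested). After herbal-charcoal and tobacco-charcoal at 2 h 4 of 14 rose and 1 fell, KDELR2, the receptor that returns escaped ER proteins such as HSPA5, going from 101 ± 3 to 124 ± 2 FPKM after herbal-charcoal (0.29, adjusted p = 7.17e-06). SEC63, a J-domain partner of HSPA5 at the translocation pore, fell there (-0.27). After tobacco-electric at 2 h 3 of 14 rose and 4 fell, SPCS3 of the signal peptidase most (-0.33). At 24 h 8 rose and 1 fell after herbal-charcoal, and 7 and 1 after tobacco-charcoal, where 16.5% and 25.9% of all tested genes rose. With tobacco-electric 5 rose and 3 fell, beside 34.3% and 29.5% of all tested genes, so these counts are no result there. SPCS3 fell by 0.37 in that group. After tobacco-charcoal SEC23B, a coat protein of ER vesicles, rose by 0.40, and SEC61A1, the pore itself, by 0.38 (142 ± 1 to 185 ± 6 FPKM). The 2 h counts depended on scaling. Under median-of-ratios scaling 3, 11, 8 and 6 of 14 rose after charcoal alone, herbal-charcoal, tobacco-charcoal and tobacco-electric. In the same order 956, 1627, 1467 and 1434 of all 8531 tested genes were then higher, against 696, 901, 725 and 791 without that scaling.

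Of 5 tested genes of ER calcium, none rose in any exposure, and 5 of 5 fell 24 h after tobacco-electric (median -0.46, against 0.03), where 29.5% of all tested genes fell. ITPR3, a calcium release channel, held 9.44 ± 0.26 FPKM in control and 4.32 ± 0.30 FPKM after tobacco-electric (-0.98), ITPR2 fell by 0.67 and the calcium-binding RCN2 by 0.46. At 2 h ITPR2 fell by 0.41 after tobacco-electric and ITPR3 by 0.34 after tobacco-charcoal. Under median-of-ratios scaling 2 of 5 rose 2 h after herbal-charcoal and after tobacco-electric, and 1 of 5 after tobacco-charcoal. In these groups 1627, 1434 and 1467 of all 8531 tested genes were then higher.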
